A study of Mus musculus with 8 samples.

Results

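The genes described here are 10 MAP kinase phosphatases of the dual-specificity family, Dusp1, Dusp2, Dusp4, Dusp5, Dusp6, Dusp7, Dusp8, Dusp9, Dusp10 and Dusp16, followed in mouse embryonic palate cells after ephrin-B1 treatment. They were chosen by name, and all probes that the array's annotation assigns to them were used. This gave 15 probes for 9 of the 10 genes, out of 46632 probes in all, and no probe carried the name Dusp7. Of these, 12 probes of 8 genes passed the filter on dim probes, which asks for a detection p under 0.05 on 4 or more arrays, and entered a test of 9396 genes. The single Dusp9 probe, the dimmest Dusp4 probe and the dimmest Dusp16 probe were above background on no array.

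The cells were primary mouse embryonic palate (MEP) cells of strain CBA;C57BL6 N2, taken from the palatal shelves at E13.5, grown in medium with serum and used at passage 1. The induced group (4 arrays) received ephrin-B1-Fc, pre-clustered, at 2 ug/ml for 60 min, and the uninduced group (4 arrays) had no induction. Both groups shared the same cell type, strain, stage and passage, and the labels do not state whether uninduced cells received the clustering reagent, or whether embryos were pooled or replicates were separate cultures, so p-values measure the spread between arrays. RNA was measured on single-colour Illumina bead arrays spread over 3 slides. Slides 1 and 2 each held the pair of arrays with that replicate number, and slide 3 held the pairs numbered 3 and 4. Ephrin-B1 is a membrane-bound ligand that activates Eph receptor tyrosine kinases when clustered.

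MAP kinases are switched on by phosphorylation of a threonine and a tyrosine in their activation loop, and these phosphatases switch them off by removing both phosphates. The family members differ in which kinase they dock to and where they sit in the cell. Dusp5, in the nucleus, and Dusp6, Dusp7 and Dusp9, in the cytoplasm, act mainly on ERK. Dusp1, Dusp2 and Dusp4 are nuclear enzymes of broader choice, and Dusp8, Dusp10 and Dusp16 act mainly on the stress kinases JNK and p38. Transcripts of several members, Dusp1, Dusp4, Dusp5 and Dusp6 among them, are made in response to MAP kinase activity, so that the phosphatase forms a feedback loop. Palatal shelf growth depends on FGF signaling, which runs through ERK.

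An array had 15303 to 17362 probes above background (32.8% to 37.2%), and the number of arrays limits the precision. All 10 listed markers of palatal mesenchyme, among them Pdgfra, Osr2 and Col1a1, were above background on all 8 arrays. Their mean log2 intensity ran from 10.73 to 10.84 in uninduced and from 10.72 to 10.89 in induced arrays. Among markers of other cells that had a probe, 2 of 6 for epithelium (Krt8 and Krt18), 1 of 5 for endothelium (Kdr), 1 of 4 for macrophages (C1qb), 0 of 4 for skeletal muscle and 0 of 2 for glia were above background on all 8 arrays. Epcam, Krt5, Pecam1, Cdh5, Tek, Ptprc, Myod1, Myf5, Des and Foxd3 were above it on none. The mean over the macrophage markers ran from 5.36 to 5.77 in uninduced and from 5.42 to 5.83 in induced arrays, and its part in the results was not tested. In RNA from a whole culture, fewer cells of a type and less RNA per cell cannot be told apart.

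The stretches before the start sites of Dusp5 and Dusp6, which were both lower after ephrin-B1, and of Dusp1 and Dusp8, which serve as comparison from the other classes, are shown for the binding motifs of factors that act downstream of MAP kinases. The 250 bases upstream of the annotated start are given 5′ to 3′ on the gene's strand, from RefSeq on build GRCm38.p6, where 8 of the 10 genes had an entry. Capitals mark matches, on either strand, to any of 5 motifs. These were the CArG box bound by serum response factor, the cAMP response element TGACGTCA, the AP-1 site TGANTCA, the Egr site GCGNGGGCG and the Ets site CCGGAA. Other forms of these sites, such as shorter Ets sites, were not searched and stay in small letters.
Dusp5, chr19:53528895-53529144, plus strand: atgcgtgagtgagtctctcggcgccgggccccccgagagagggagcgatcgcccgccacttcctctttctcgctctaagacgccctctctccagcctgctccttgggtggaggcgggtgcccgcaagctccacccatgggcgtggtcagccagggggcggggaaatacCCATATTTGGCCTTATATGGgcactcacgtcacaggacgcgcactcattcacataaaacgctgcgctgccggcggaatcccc
Dusp6, chr10:99262981-99263230, plus strand: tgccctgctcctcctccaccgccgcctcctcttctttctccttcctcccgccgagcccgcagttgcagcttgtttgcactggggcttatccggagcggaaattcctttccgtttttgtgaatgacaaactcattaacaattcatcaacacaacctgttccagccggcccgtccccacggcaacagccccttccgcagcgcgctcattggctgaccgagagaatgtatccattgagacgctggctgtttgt
Dusp1, chr17:26508473-26508722, minus strand: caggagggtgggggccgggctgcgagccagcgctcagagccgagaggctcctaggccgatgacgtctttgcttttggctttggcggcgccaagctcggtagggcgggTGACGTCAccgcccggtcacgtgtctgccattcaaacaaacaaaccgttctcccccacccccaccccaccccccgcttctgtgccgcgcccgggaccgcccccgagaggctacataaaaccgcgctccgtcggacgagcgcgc
Dusp8, chr7:142095285-142095534, minus strand: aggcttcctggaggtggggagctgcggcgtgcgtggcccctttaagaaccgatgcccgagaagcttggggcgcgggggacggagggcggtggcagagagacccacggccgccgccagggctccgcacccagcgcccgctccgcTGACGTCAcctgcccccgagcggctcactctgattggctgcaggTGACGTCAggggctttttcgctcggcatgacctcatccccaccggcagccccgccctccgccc

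The Dusp5 window held 2 CArG boxes side by side, starting 82 and 72 bases before the start site. Of 32851 promoter windows of the same length, 1.47% held a CArG box. The Dusp6 window held 0 matches to the 5 motifs. The Dusp1 window held 1 cAMP response element, 143 bases before the start, and the Dusp8 window held 2, at 107 and 63 bases. That element was in 1.55% of all windows, the AP-1 site in 6.75%, the Egr site in 4.70% and the Ets site CCGGAA in 12.0%. None of these matches overlapped another motif. The Dusp2 and Dusp16 windows each held 1 Egr match, and those of Dusp7 and Dusp10 held 0 matches to the 5 motifs. These matches describe letters in a window and are not evidence of binding.

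The study set ephrin-B1-treated against uninduced cells to find early transcriptional targets of Eph receptor signaling at 60 min. Among the phosphatases, transcripts of the ERK-selective enzymes Dusp6 and Dusp5 were lower after ephrin-B1, by 1.69-fold and 1.62-fold. Dusp4, of broader choice, was 1.32-fold lower. Dusp1, a broadly acting nuclear enzyme, differed by 1.12-fold, and no JNK/p38-directed phosphatase passed the test. Limma called 1 of the 8 tested genes lower without a block (Dusp6), 2 with the slide as a block (Dusp6 and Dusp5) and 3 with the replicate number as a block (Dusp6, Dusp5 and Dusp4), and 0 higher in each. At an unadjusted p under 0.05 without a block, 3 were lower (Dusp6, Dusp5 and Dusp4) and 0 higher, against 0.937% lower and 0.341% higher over all 9396 genes. By adjusted p the shares of all genes called lower were 0.0213% (no block), 0.106% (by slide) and 0.49% (by replicate number), and the shares called higher were 0.0106%, 0.0213% and 0.0426%. The block is a term that removes differences shared by the arrays of a slide or replicate number, and arrays of the same number did resemble each other.

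Dusp6 dephosphorylates ERK in the cytoplasm. Its brightest probe read 10.76, 10.83, 10.80 and 11.01 in uninduced replicates 1 to 4, as normalized log2 intensity, and 10.03, 9.95, 10.14 and 10.27 in the induced replicates of the same numbers. Every induced array lay below every uninduced array, and replicate 4 was the highest of both groups. Of all genes tested, 0.724% had such non-overlapping lower values and 0.479% non-overlapping higher ones. Before normalization the intensity was 1480 to 2309 in uninduced and 886 to 1392 in induced arrays. The log2 difference was -0.76 (SE 0.094, limma adjusted p = 0.0345, lower in 4 of 4 pairs), and blocking by slide gave an adjusted p of 0.00217 and blocking by replicate number one of 2.99e-06. Within pairs 1 to 4 the difference was -0.73, -0.89, -0.66 and -0.75. Without a block the call was lost with median scaling (adjusted p = 0.9998), the mean of kept probes (0.9998), no variance trend (0.119), detection on all 8 arrays (0.059), slides 1 and 2 alone (0.055) and slide 3 alone. Leaving out any 1 array from that fit also ended the call when probes were filtered anew on the other 7 arrays (adjusted p 0.063 to 0.341), but with the probes kept as on all 8 arrays it held without induced replicate 4 (adjusted p = 0.0332) and was lost when any other array was left out (0.0845 to 0.214). By contrast, leaving out any 1 pair from the fit with the replicate block kept it (adjusted p 2.45e-06 to 0.000189).

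A dimmer Dusp6 probe, for the same RefSeq transcript, was above background only on the 4 arrays of slide 3. It read 5.06, 5.04, 6.18 and 6.05 in uninduced and 4.78, 5.32, 5.64 and 5.41 in induced replicates 1 to 4. On slide 3 both pairs were lower, by 0.54 and 0.64 on the log2 scale, and on slide 2, where it was not above background, the induced array read higher. Over all arrays the probe's difference was -0.29 (SE 0.29) and was not called (adjusted p over all probes = 0.9999 without a block and 0.672 with the replicate block). Of 16514 kept probes, 0.00606% (no block), 0.0666% (slide block) and 0.285% (replicate block) were called lower, against 1, 2 and 3 of the 12 kept phosphatase probes. The shares of probes called higher were 0.0121%, 0.0182% and 0.0424%, against 0 of the 12.

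Dusp5 removes phosphate from ERK in the nucleus and holds ERK there. Its only probe read 10.39, 10.59, 10.60 and 10.95 in uninduced replicates 1 to 4 and 9.77, 9.67, 10.04 and 10.24 in induced ones. The groups did not overlap, and replicate 4 was again highest in both. The log2 difference was -0.70 (SE 0.15, lower in 4 of 4 pairs), with pair values of -0.61, -0.92, -0.56 and -0.70. Limma did not call it without a block (adjusted p = 0.665). Either block brought it past the threshold, that by slide at an adjusted p of 0.0164 (SE 0.092) and that by replicate number at 3.25e-05 (SE 0.062), and leaving out any 1 pair with the replicate block kept the adjusted p between 1.58e-05 and 0.00089.

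**Figure D1:**
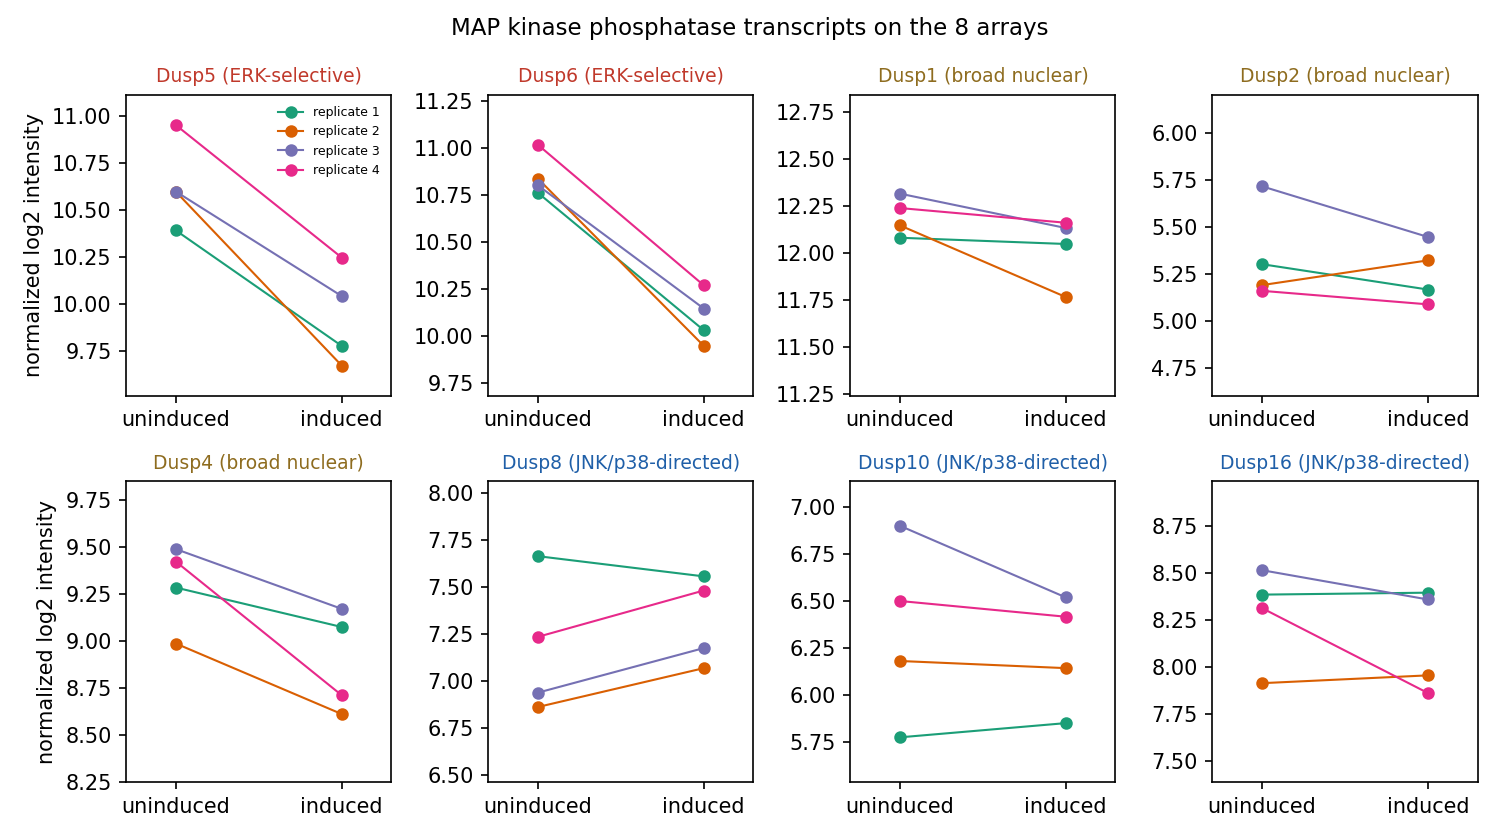
Normalized log2 intensity of the representative probe of each of the 8 tested phosphatases in uninduced and induced cells, with a line joining the 2 arrays of a replicate number and each panel spanning 1.6 log2 units. For Dusp5 and Dusp6 all 4 lines fall and the groups do not overlap, whereas for Dusp8, Dusp10 and Dusp16 the lines run in both directions.

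The remaining ERK-selective enzymes gave no comparison. Dusp9, a cytoplasmic ERK phosphatase needed in the placenta, had normalized log2 values of 4.52 to 4.72 in uninduced and 4.47 to 4.60 in induced arrays. Its lowest detection p on any array was 0.309, so it was not detectable here. Dusp7 had no probe.

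Among the nuclear phosphatases of broader choice, Dusp4 moved most. Dusp4 acts on ERK, JNK and p38. Its brightest probe read 9.28, 8.98, 9.49 and 9.42 in uninduced replicates 1 to 4 and 9.07, 8.61, 9.17 and 8.71 in induced ones. Replicate 2 was the lowest of both groups, each induced array lay below its partner, and the groups overlapped. The log2 difference was -0.40 (SE 0.15, lower in 4 of 4 pairs), with pair values of -0.21, -0.37, -0.32 and -0.71. The limma adjusted p was 0.9998 with no block, 0.48 when blocked by slide and 0.0239 when blocked by replicate number. That last call was lost without replicate 2 (adjusted p = 0.14), without replicate 4 (adjusted p = 0.146) and without the variance trend (adjusted p = 0.399). A second Dusp4 probe, above background on all 8 arrays, was also lower in 4 of 4 pairs, with a log2 difference of -0.28 (pairs -0.25, -0.43, -0.10 and -0.34), and was not called over all probes (adjusted p = 0.34 with the replicate block). Of the 8 tested phosphatases 4 were lower in all 4 pairs (Dusp1, Dusp4, Dusp5 and Dusp6) and 0 were higher in all 4, against 8.38% and 7.57% of all genes.

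Dusp1 is an immediate early gene whose product acts on p38, JNK and ERK. It read 12.08, 12.15, 12.32 and 12.24 in uninduced replicates 1 to 4 and 12.05, 11.77, 12.13 and 12.16 in induced ones. The pair differences of -0.03, -0.38, -0.18 and -0.08 were all negative, and that of replicate 2 was the farthest from 0. The mean difference was -0.17 (SE 0.097, 95% interval -0.38 to 0.045, lower in 4 of 4 pairs), and limma did not call it in any of the 3 fits (adjusted p = 0.9998 without a block, 0.9997 by slide, 0.423 by replicate number). With the replicate block the 95% interval was -0.29 to -0.045, so that it left out 0 before adjustment.

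Dusp2, an inducible nuclear phosphatase best known from leukocytes, was dim. It exceeded background on 3 uninduced and 2 induced arrays. Its values were 5.30, 5.19, 5.72 and 5.16 in uninduced and 5.17, 5.32, 5.45 and 5.09 in induced replicates 1 to 4. The groups overlapped almost fully, and the difference was -0.09 (SE 0.15, 95% interval -0.42 to 0.25, lower in 3 of 4 pairs, adjusted p = 0.9998 without a block and 0.896 with the replicate block).

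At their brightest probes, Dusp8, Dusp10 and Dusp16, which are directed at JNK and p38, were above background on all 8 arrays. Dusp8 read 7.67, 6.86, 6.94 and 7.24 in uninduced and 7.56, 7.07, 7.18 and 7.48 in induced replicates 1 to 4. It was higher in pairs 2, 3 and 4, by 0.21, 0.24 and 0.25, and lower in pair 1, by 0.11 on the log2 scale. Its mean difference of 0.15 (SE 0.19, 95% interval -0.28 to 0.57, higher in 3 of 4 pairs) was the only positive one among the 8 genes at their brightest probe. Limma did not call it (adjusted p = 0.9998 without a block and 0.741 with the replicate block).

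Dusp10 read 5.78, 6.18, 6.90 and 6.50 in uninduced and 5.85, 6.14, 6.52 and 6.42 in induced replicates 1 to 4. Its replicate means lay 0.90 apart, between 5.81 for replicate 1 and 6.71 for replicate 3, against a difference between groups of -0.11 (SE 0.24, 95% interval -0.63 to 0.42, lower in 3 of 4 pairs, adjusted p = 0.9998 without a block and 0.849 with the replicate block). Its second probe, which exceeded background on 3 uninduced and 4 induced arrays, also gave -0.11, with 3 of 4 pairs lower. The sign of Dusp10 turned without uninduced replicate 3 (0.08), without induced replicate 1 (0.02) and on slides 1 and 2 alone (0.02).

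Dusp16 read 8.38, 7.91, 8.51 and 8.31 in uninduced and 8.39, 7.95, 8.36 and 7.86 in induced replicates 1 to 4. Pairs 1 and 2 were slightly higher, by 0.01 and 0.04, and pairs 3 and 4 lower, by 0.16 and 0.45 on the log2 scale. The difference was -0.14 (SE 0.17, 95% interval -0.50 to 0.23, lower in 2 of 4 pairs, adjusted p = 0.9998 without a block and 0.731 with the replicate block). Leaving out 1 array moved the difference between -0.26 (without uninduced replicate 2) and -0.045 (without induced replicate 4), and on slides 1 and 2 alone it was 0.03. A second probe gave -0.07, with pair values of -0.15, 0.07, 0.10 and -0.30. Its sign differed from that of the brightest probe in pairs 1 and 3.

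**Figure D2:**
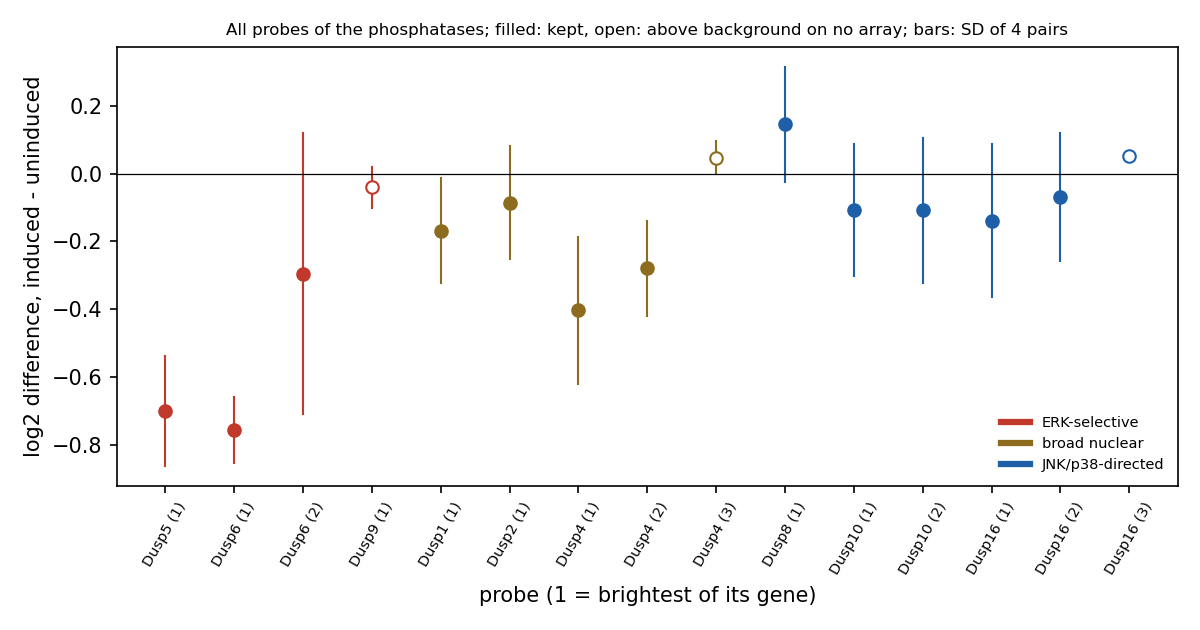
Log2 difference (induced minus uninduced) of each of the 15 probes, with bars for the SD over the 4 pairs and open symbols for the 3 probes above background on no array. The Dusp5 probe and the brightest Dusp6 probe lie at -0.70 and -0.76, both well detected Dusp4 probes at -0.40 and -0.28, and those of Dusp10 and Dusp16 between -0.14 and 0.05.

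The spread between replicate numbers was set beside the difference between groups for each gene. For Dusp6 the replicate means lay 0.25 apart and the groups 0.76 apart, and for Dusp5 these were 0.52 and 0.70. For the other 6 genes the replicate means were farther apart than the groups. The gap between replicate means was 0.53 for Dusp4, against 0.40 between groups. For Dusp1, Dusp2, Dusp8 and Dusp16 it was 0.27, 0.46, 0.65 and 0.50, against 0.17, 0.09, 0.15 and 0.14. Replicate 4 was the highest for Dusp5 and Dusp6, replicate 3 for Dusp1, Dusp2, Dusp4, Dusp10 and Dusp16, and replicate 1 for Dusp8.

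**Figure D3:**
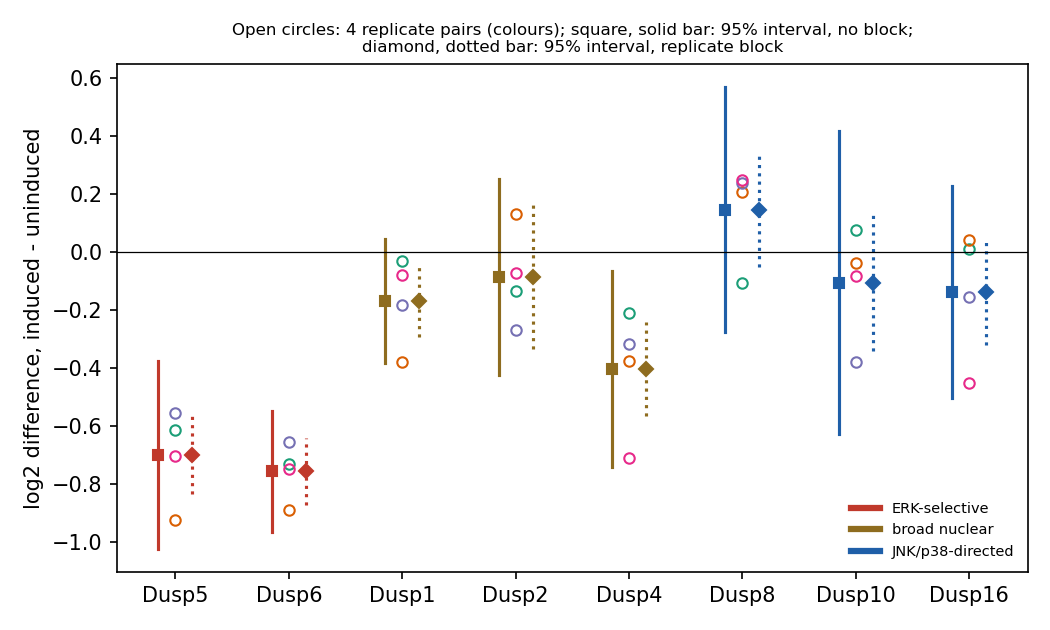
Log2 difference (induced minus uninduced) of the 8 tested phosphatases, with open circles for the 4 pairs coloured by replicate number and bars for the 95% intervals without a block and with the replicate block. The intervals of Dusp5, Dusp6 and Dusp4 lie below 0 in both fits, and those of Dusp2, Dusp8, Dusp10 and Dusp16 span 0 in both.

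The ERK-selective and JNK/p38-directed classes were compared by their medians, with no test, since the genes were chosen with results known. The ERK-selective class had 2 tested members of 4, with a median log2 difference of -0.73. The JNK/p38-directed class had 3 of 3 and a median of -0.11, and the nuclear class of broader choice had 3 of 3 and a median of -0.17. The median over all 9396 genes was -0.0014. With the replicate block 2 of 2 tested ERK-selective, 1 of 3 broader and 0 of 3 JNK/p38-directed genes were called lower, against 0.49% of all genes. At that share, 0 of 3 is no result about the JNK/p38-directed class.

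The class difference ran the same way in each pair. The ERK-selective median was -0.67, -0.91, -0.61 and -0.73 in pairs 1 to 4, and the JNK/p38-directed median was 0.01, 0.04, -0.16 and -0.08. The ERK-selective class was thus lower than the JNK/p38-directed class by 0.68, 0.95, 0.45 and 0.64 on the log2 scale. No interval of Dusp5 or Dusp6 with the replicate block (-0.83 to -0.57 and -0.87 to -0.64) overlapped that of Dusp8 (-0.054 to 0.34), Dusp10 (-0.34 to 0.13) or Dusp16 (-0.32 to 0.045). Without a block the interval of Dusp6 (-0.96 to -0.55) overlapped that of Dusp10, and that of Dusp5 (-1.02 to -0.38) overlapped those of Dusp10 and Dusp16. These intervals are unadjusted and belong to single genes, so they do not test the classes.

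**Figure D4:**
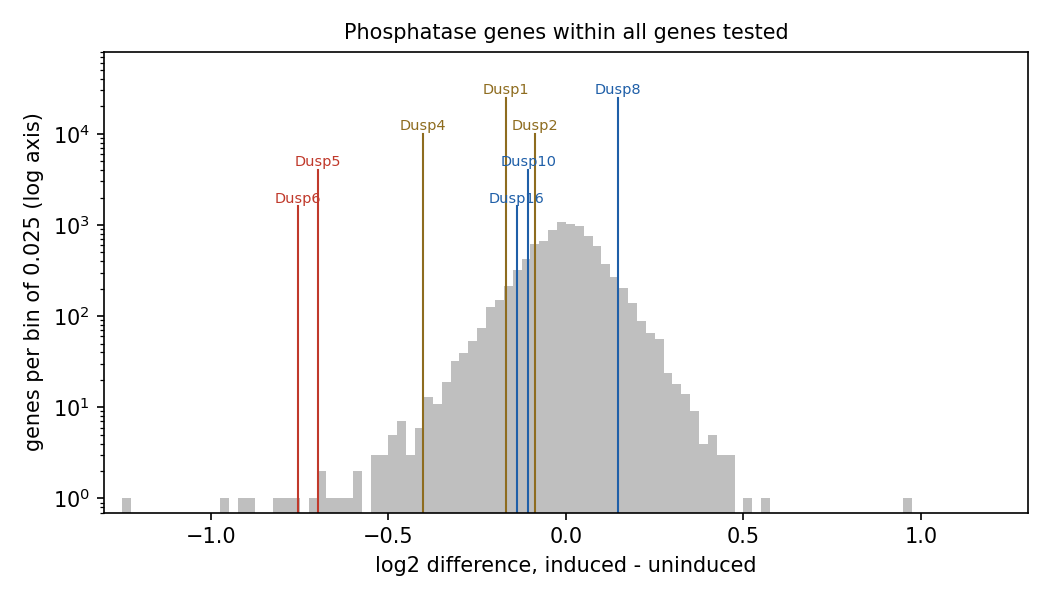
Histogram of the log2 difference (induced minus uninduced) over the 9396 genes tested, on a log axis of genes per bin, with the 8 phosphatases marked as lines whose heights only separate the names, and 1 gene outside the range shown. Only 6 genes lay below Dusp6 and 8 below Dusp5, whereas Dusp8, Dusp10, Dusp16, Dusp1 and Dusp2 lie within the bulk of genes.

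Within all genes, Dusp6 and Dusp5 lay close to each other at the lower end. Of 9396 genes, 6 had a more negative difference than Dusp6, 8 than Dusp5 and 41 than Dusp4. Likeness of pattern was measured as the root mean square difference between mean-centred profiles over the 8 arrays, on the log2 scale. The 4 genes most like Dusp6 were Hbegf, a ligand of the EGF receptor (0.10), Dusp5 (0.11), Ptgs2, the inducible cyclooxygenase (0.14), and Egr1, an early zinc finger factor (0.17), against a median of 0.43 over all genes. Those most like Dusp5 were Dusp6 (0.11), Hbegf (0.14), Phlda1 (0.16) and Ptgs2 (0.18), against a median of 0.45. For Dusp4 they were Rb1, the retinoblastoma gene (0.11), Zfp36l1, an RNA-binding protein of mRNA decay (0.12), Zfpm2 (0.13) and Tma7 (0.15), against a median of 0.34, and limma called none of these 4 in any of the 3 fits. For Dusp1 they were Pex5, Mlf1, Cmtr2 and Mynn (0.040 to 0.058), against a median of 0.23, none of them called. Likeness was measured over the arrays of both groups, so genes picked as most like Dusp6 or Dusp5 were bound to fall in a similar way. Hbegf, Ptgs2, Egr1 and Phlda1 were lower in 4 of 4 pairs, with log2 differences of -0.59, -0.78, -0.62 and -0.53. Limma called each of them lower when blocked by slide (adjusted p 0.00643 to 0.0182) or by replicate number (6.43e-05 to 0.000359). Unblocked, it called none of them (adjusted p 0.149 to 0.9998). A fall like that of Dusp6 and Dusp5 was thus not confined to phosphatases, but these genes were picked for it and give it no separate support.

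The other genes of the MAP kinase pathway were taken from lists of the kinases, their upstream kinases and further phosphatases, of which 41 of 61 genes were tested. Limma called 0 of the 41 in either direction in any of the 3 fits. Over all genes the 3 fits called 0.0213% to 0.49% lower and 0.0106% to 0.0426% higher, so 0 of 41 is near those shares. Of the 41, 0 had an unadjusted p under 0.05 without a block, against 0.937% lower and 0.341% higher over all genes. The median difference of the 41 was -0.0086, and their range was -0.15 to 0.29.

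Of the ERK-arm kinases 4 were tested, with a median difference of 0.02. Mapk6, an atypical MAP kinase, had the smallest p of them, with 10.88 ± 0.14 (SD, n = 4) without and 10.73 ± 0.075 (SD, n = 4) after ephrin-B1, and a limma adjusted p of 0.9998. Map2k1, a kinase that activates ERK, differed by 0.10 (SE 0.18). Of the JNK/p38-arm kinases and scaffolds 10 were tested, with a median of -0.02. Mapk12, a p38 isoform, differed by 0.12 (SE 0.12, higher in 4 of 4 pairs) and Mapk8ip3, a JNK scaffold, by 0.10 (SE 0.13), neither called.

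All 7 tested MAP3 kinases had a lower mean in induced cells, with differences of -0.14 to -0.03 and a median of -0.08, and none was called. Of all 9396 genes 4772 had a lower mean, and in pair 2 the median of the MAP3 kinases was positive, at 0.08. Those with the smallest p were Map3k12, lower in 4 of 4 pairs (-0.11, SE 0.063), and Map3k11, lower in 3 of 4 (-0.14, SE 0.11). The atypical dual-specificity phosphatases, small enzymes that lack the MAP kinase docking domain, had 13 tested members and a median of 0.03. Dusp28 differed by 0.29 (SE 0.16, higher in 3 of 4 pairs) and Dusp12 by 0.11 (SE 0.12, higher in 4 of 4 pairs), both with an adjusted p of 0.9998 without a block. Without uninduced replicate 2 the value of Dusp28 was 0.16, and it was 0.48 on slides 1 and 2 and 0.04 on slide 3. The 7 tested other phosphatases of MAP kinases had a median of -0.0027. Among these, Ptpn5, a tyrosine phosphatase with a kinase docking motif, differed by -0.13 (SE 0.15; -0.03 without uninduced replicate 1 and -0.22 without uninduced replicate 4) and Ppp2r1b, a scaffold subunit of protein phosphatase 2A, by 0.06 (SE 0.085).

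**Figure D5:**
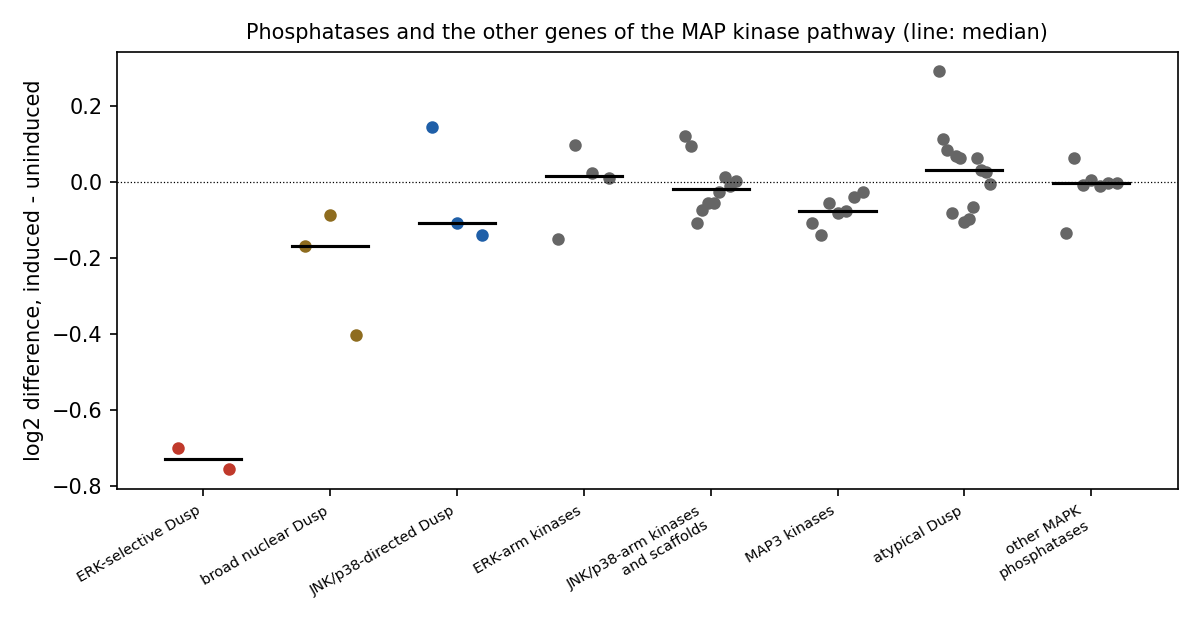
Log2 difference (induced minus uninduced) of each tested gene in the 3 phosphatase classes and in 5 lists of other MAP kinase pathway genes, with a line at each median. Dusp5 and Dusp6 lie near -0.7, and the 41 pathway genes lie between -0.15 and 0.29.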

How the data were processed

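The deposited table holds, for every array, each probe's bead-average intensity on a linear scale and its detection p-value, per the file headers, with no normalization between arrays; GenomeStudio 1.6.0 is named in the submitters' processing notes, and no genome build is given in the sources used here. The authors' processed matrix, whose intensity values are background-subtracted with a median of 4.4 on each array, was an alternative. Median intensity per array was 69.6 to 75.9. Repeated identifiers (11) were averaged. Intensities were normalized with neqc (limma 3.58.1, R 4.3.3, offset 16, controls inferred from detection p). Probes detected on 4 or more arrays (16514) were fitted with lmFit and eBayes with a variance trend. The brightest kept probe stood for its gene, and two-sided p-values were Benjamini-Hochberg adjusted over 9396 genes (threshold 0.05), without a block, as the series design names none.

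Arrays of the same replicate number deviated together from their group means (correlations across genes of 0.591 to 0.716, against -0.54 to 0.30 for other combinations, limit 0.1). Deviations from a group mean sum to 0, so positive values for the same numbers pull the other combinations below 0 on average. For replicates 1 and 2, likeness by number cannot be told apart from likeness by slide. On slide 3 the same numbers gave 0.72 and 0.62, against 0.30 and 0.15 for different numbers. Blocked values are therefore given. The members, gene lists and tests were chosen with earlier results of these data known. Named genes were all members, in each pathway list those called in any of the 3 fits and the 2 with the smallest p, and the 4 genes most like Dusp6, Dusp5, Dusp4 and Dusp1. Alternatives changed the background correction, normalization, input values, variance trend, filter, probe choice, blocks, slides and replicates. Listed after the data were seen were variance moderation over gene rows, with no block and with either block, and leaving out each array with the probes kept as on all 8. Fits on slides 1 and 2 or slide 3 alone required detection on 2 arrays, and those without a pair on 3.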

Additional observations from a re-analysis of the deposited data

Results flagged for a closer look

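Of 30 groups of 4 arrays (15 probes in 2 groups), 2 held an array whose gap to the nearest other was large for the group's range, where chance gives about 1 in 20. The Dusp16 probe of middle brightness read 7.50 in uninduced replicate 2, below the 7.94 to 7.98 of the other uninduced arrays. Induced replicate 2 was also the lowest of its group on that probe, at 7.57. The brightest Dusp16 probe was lowest in replicate 2 among uninduced arrays (7.91) but in replicate 4 among induced arrays (7.86). The Dusp9 probe, above background on no array, read 4.72 in uninduced replicate 3, above the 4.52 to 4.54 of the others.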

How the results depend on the processing

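The negative sign of Dusp6, Dusp5, Dusp4 and Dusp1 and the positive sign of Dusp8 held under all 36 alternatives, with log2 differences of -0.83 to -0.53, -0.81 to -0.60, -0.52 to -0.29, -0.22 to -0.083 and 0.041 to 0.31. Many of these alternatives could not turn a sign. A block on all 8 arrays, the variance trend, the variance moderation and the probe filter left these differences as they were. Leaving out an array gave the same difference under either way of filtering. Without a block 1 phosphatase gene, 1 phosphatase probe, and 2 genes lower and 1 higher in all were called. The replicate block gave 3 genes, 3 probes, 46 lower and 4 higher, and with median scaling as well 3, 3, 38 and 4. The slide block gave 2, 2, 10 and 2. Variance moderation over the 9396 gene rows was run first, and moderation over all kept probes was chosen for the report after both sets of values were seen. The gene rows gave 1 phosphatase gene, with 2 lower and 1 higher in all, without a block, 2, 13 and 2 with the slide block and 3, 47 and 7 with the replicate block, and the limma adjusted p was 0.0235 for Dusp6 and 0.487 for Dusp5 without a block and 0.0116 for Dusp4 with the replicate block, so no call of a phosphatase changed. The replicate block without the variance trend gave 2 phosphatase genes and 10 lower in all. The replicate block without replicate 1, 2, 3 or 4 gave 2 to 3 genes, 2 probes, 29, 23, 33 or 25 lower and 4 to 6 higher. Leaving out 1 array without a block gave 0 phosphatase genes, 0 probes, 0 lower and 0 to 1 higher when probes were filtered anew, and 0 to 1 phosphatase genes, 0 to 1 probes, 0 to 1 lower and 1 higher with the probes kept as on all 8 arrays, a setting added after seeing the data. Phosphatase genes called were also 0 with detection on all 8 arrays (0 probes, 0 lower, 0 higher), with the mean of kept probes (1 lower in all), with median scaling (0 probes, 0 lower), without the variance trend (0 probes, 0 lower), on slides 1 and 2 (0 probes, 0 lower) and on slide 3 (0 probes, 0 lower, 0 higher). The authors' matrix kept 1 gene, with 0 probes and 0 higher in all, and no filter kept 1 gene with 0 probes. The cause was not tested. The class difference was -0.62, and ran from -0.83 on slides 1 and 2 to -0.42 on slide 3. Signs turned for Dusp2 without uninduced replicate 3 (0.038, range over single arrays left out -0.15 to 0.038), Dusp10 on slides 1 and 2 (0.017), without uninduced replicate 3 (0.079) and without induced replicate 1 (0.021, range -0.30 to 0.079), Dusp16 on slides 1 and 2 (0.027), Map2k1 on slide 3 (-0.25), without uninduced replicate 1 (-0.045, range -0.045 to 0.22) and without replicate 1 with the replicate block (-0.13), Mapk12 and Ppp2r1b with the mean of kept probes (-0.12 and -0.0015) and Mapk8ip3 on slide 3 (-0.053). None of these was called in any fit. Dusp9, Dusp2 and the dimmer Dusp6 probe lie at or near background, which limits what they can show.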
